A study of Mus musculus with 12 samples.

Results

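The cytosolic ribosomal protein genes encode the protein parts of the ribosome that works in the cytoplasm. They were chosen by symbol, as autosomal protein-coding genes named Rpl or Rps with a number, with Rplp0, Rplp1, Rplp2 and Rpsa, and 80 of the 20661 autosomal protein-coding genes met that rule. They comprised 40 genes of the large subunit, 29 of the small subunit, the 3 stalk genes and 8 paralogs. The 4 X-linked members Rpl10, Rpl36a, Rpl39 and Rps4x were left out by the rule, and Rps3a1 did not match it.

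Histone marks were mapped by ChIP-seq, in which chromatin carrying a mark is precipitated with an antibody and sequenced. The cells were cKit+ bone marrow cells, a fraction enriched in blood stem and progenitor cells, sorted from C57BL/6 mice. One genotype was Phf6R274X Tg (Tg) and the other was wild type (WT), with 2 libraries per genotype for each of H3K27ac, H3K4me1 and H3K4me3, 12 libraries in all. The labels give neither the age of the mice nor the promoter that drives the transgene. They do not say that the 2 libraries of a genotype came from separate mice, so each p-value below measures the spread between these libraries. Phf6 is an X-linked gene of a nuclear and nucleolar protein that is recurrently mutated in leukaemia.

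Each ribosome holds 1 copy of most of its proteins, so their genes are transcribed at high and closely matched rates in nearly every cell. Many of their messenger RNAs start with a C followed by a run of pyrimidines, the terminal oligopyrimidine tract, through which mTOR signalling controls their translation. The blood system is sensitive to their dose, since loss of 1 copy of several of them causes Diamond-Blackfan anaemia, a failure of red cell production. H3K4me3 marks active promoters, H3K27ac marks active promoters and enhancers, and H3K4me1 marks enhancers and the flanks of promoters.

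RefSeq promoter sequence on GRCm38.p6, the assembly called mm10, was given for 60 of the 80 genes. The annotated start was a C followed by at least 4 pyrimidines in 13 of the 60 genes (21.7%), against 2.17% of all 16456 promoters in the table. The rule needs a C at that exact base, so the count depends on where the start is annotated. Runs of 16, 7 and 6 pyrimidines at Rpl27a, Rpl7a and Rps24 began with a T and were not counted. Of the 13 counted, 6 are printed here as examples of starts that carry the tract and lie under H3K4me3 and H3K27ac peaks in every library. The starts of Rpl14, Rpl28, Rpl38, Rplp2 and Rps15a met the same conditions and are not printed. Each sequence runs 5′ to 3′ from 60 bases before the annotated start to 20 bases from it on, and capitals mark the unbroken pyrimidine run that begins at the start. The start of Rps19, the first gene linked to Diamond-Blackfan anaemia, is printed beside them because no pyrimidine run begins at the base used. That base is the most upstream of 3 entries for Rps19, and the other entries were not examined.
Rpl15 (chr14:18270967-18271046, minus strand): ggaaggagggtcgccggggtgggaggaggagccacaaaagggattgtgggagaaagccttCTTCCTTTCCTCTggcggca
Rpl35 (chr2:39005112-39005191, minus strand): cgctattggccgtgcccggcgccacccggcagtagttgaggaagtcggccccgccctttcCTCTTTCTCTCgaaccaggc
Rps6 (chr4:86857348-86857427, minus strand): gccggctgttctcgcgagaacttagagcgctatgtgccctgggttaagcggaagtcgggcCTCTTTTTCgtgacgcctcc
Rps10 (chr17:27635225-27635304, minus strand): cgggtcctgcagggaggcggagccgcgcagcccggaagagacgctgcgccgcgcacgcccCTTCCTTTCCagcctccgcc
Rps18 (chr17:33955646-33955725, minus strand): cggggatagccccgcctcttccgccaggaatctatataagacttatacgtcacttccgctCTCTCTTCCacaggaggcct
Rps27 (chr3:90213629-90213708, minus strand): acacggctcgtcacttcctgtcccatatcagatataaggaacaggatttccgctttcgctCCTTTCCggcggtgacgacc
Rps19 (chr7:24884532-24884611, plus strand): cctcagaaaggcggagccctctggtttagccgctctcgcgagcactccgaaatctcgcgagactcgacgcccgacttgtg

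Among the printed starts, the pyrimidine run was longest at Rpl15 (13 bases), Rpl35 (11) and Rps10 (10). Of 5 motifs searched on both strands from 250 bases before to 50 bases after the start, CCGGAAG, a core bound by ETS factors, was in 38.3% of the ribosomal protein promoters and 12.3% of all promoters. GGGCGG, the core of SP1 sites, was in 58.3% and 47.3%, and AAGATGG, a core of YY1 sites, in 16.7% and 6.40%. TATAAA, the TATA box, was in 6 of the 60 ribosomal protein promoters and 13.5% of all promoters, and the E-box CACGTG, a palindrome, was in 8.33% and 7.97%. A match describes letters and not binding.

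The deposited data used here are 1 list of peaks per library without reads, and sequencing depth is therefore unknown. The lists held 31257 to 42124 peaks for H3K27ac, 100316 to 130348 for H3K4me1 and 34920 to 39584 for H3K4me3. In the 4 H3K4me3 lists the names given to the peaks state the other genotype than the sample labels do, and every H3K4me3 direction in the text rests on the labels alone. The lists mix all cells of the sort, so fewer cells with a mark and less of the mark per cell cannot be told apart. H3K27ac peaks near 8 granulocyte marker genes covered 43.0 to 48.6 kb in Tg libraries and 97.4 to 101.9 kb in WT libraries, with none of the 8 at 0 in both libraries of a genotype. The part of cell composition in the results below was not tested.

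Nearly every ribosomal protein gene carried the promoter marks. H3K4me3 and H3K27ac peaks lay within 10 kb of an end of all 72 genes other than the paralogs in all lists, while 71.6 to 74.7% of autosomal genes had an H3K4me3 peak there and 58.7 to 61.7% an H3K27ac peak. H3K4me1 was present at all 72 in every list but Tg 1, where Rpl15 had none. Rpl10l and Rpl39l, paralogs expressed in the male germ line, had no peak of any mark in any of the 12 lists.

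In the median, the H3K4me3 peaks at these genes were wider than those of all autosomal genes with a peak. The median width of the widest H3K4me3 peak was 2707 and 2808.5 bp in Tg libraries and 3258.5 and 2838 bp in WT libraries over the 77 or 78 genes with a peak. Over all autosomal genes with a peak the medians were 2123 and 2047 bp in Tg libraries and 2142 and 1973 bp in WT libraries. Width was not particular to ribosomal protein genes, since 24 translation factors and other genes with pyrimidine starts had wider medians. These were 3117 and 3162 bp in Tg libraries and 3387.5 and 3117 bp in WT libraries. Rpl18 (chr7:45715467-45720835), a large-subunit gene, had the widest mean H3K4me3 peak, of 5378 and 5659 bp in Tg libraries and 6060 and 5394 bp in WT libraries. Its window holds ends of 5 other genes, the nearest 336 bp away, so this width may not belong to Rpl18 alone. Rps18 (chr17:33951998-33955665), a small-subunit gene, had H3K4me3 peaks of 3124 and 4041 bp in Tg libraries and 7005 and 3734 bp in WT libraries, so that WT 1 stood far from the other libraries. Rps15, a small-subunit gene, had the narrowest H3K4me3 mean apart from paralogs, with 1981 and 1836 bp in Tg libraries and 2293 and 2101 bp in WT libraries.

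**Figure D1:**
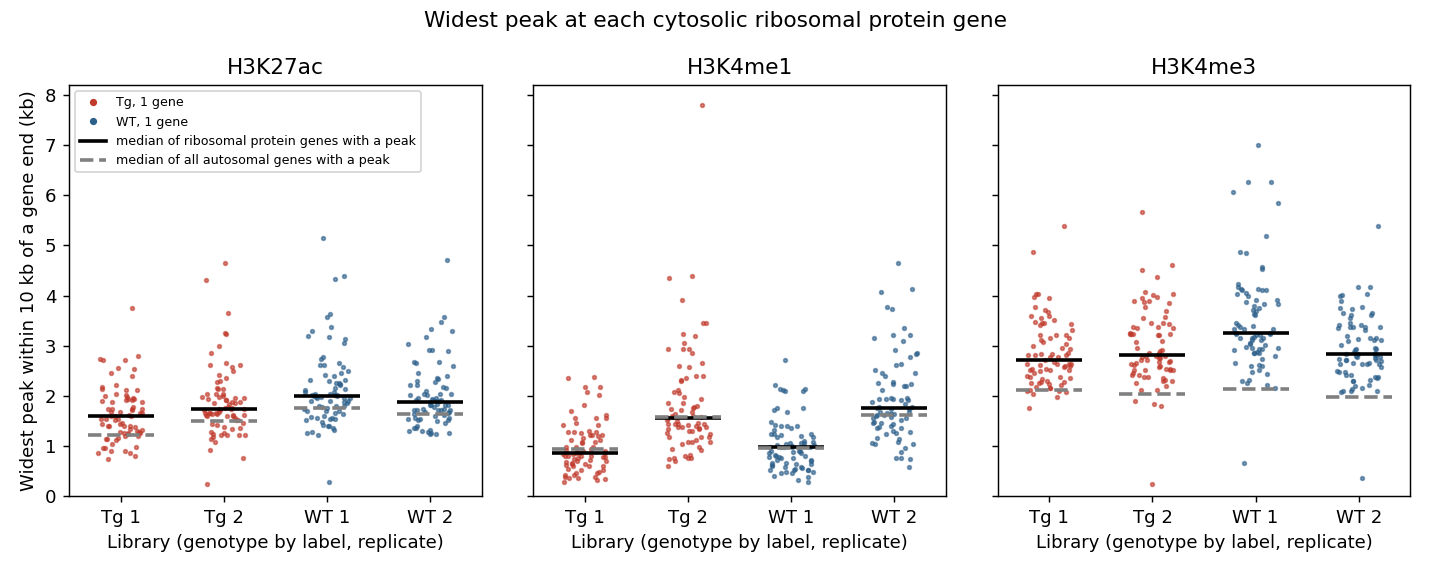
Width in kb of the widest peak within 10 kb of a gene end, for each ribosomal protein gene with a peak (points) in each of the 12 libraries, with Tg left of WT for each mark. Black lines are medians of these genes and grey dashed lines medians of all autosomal genes with a peak. H3K4me3 points lie above the grey line for most genes, and WT 1 holds the tallest ones.

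H3K27ac peaks were narrower than H3K4me3 peaks at the same genes. The median of the widest H3K27ac peak was 1603 and 1747.5 bp in Tg libraries and 2006 and 1876 bp in WT libraries. These medians cover the 77 or 78 genes with a peak. Rpl18, with the same close neighbours, again had the widest, of 3751 and 4643 bp in Tg libraries and 5143 and 4717 bp in WT libraries. Rps24, which encodes a small-subunit protein and is a Diamond-Blackfan gene, had the narrowest mean apart from paralogs, at 904 and 915 bp in Tg libraries and 1216 and 1263 bp in WT libraries.

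H3K4me1 differed more between replicates than between genotypes. Over genes with a peak, its widest peak had a median of 867 and 1569.5 bp in Tg libraries and 976.5 and 1752.5 bp in WT libraries. The second library of each genotype was the wider. Rplp2, a stalk protein gene, had the widest H3K4me1 mean, but 1 library made it, with 1282 and 7790 bp in Tg libraries and 1757 and 3152 bp in WT libraries. Rpl15 had the narrowest among genes with a peak, at 0 and 693 bp in Tg libraries and 279 and 753 bp in WT libraries.

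At the start itself the marks separated. Starts were taken from the RefSeq promoter table for the 60 genes with an entry, using the most upstream start where several were annotated, as at 10 of them. An H3K4me3 peak covered the start in 55 of 60 genes in every one of the 4 lists, against 58.1 to 60.4% of all genes. The exceptions were the paralogs Rpl10l, Rpl39l, Rpl3l and Rpl32l, and Rpl22, which has a second annotated start. H3K27ac covered the start in 50 and 53 of 60 genes in Tg libraries and in 55 and 55 in WT libraries, against 36.7 and 43.6% of all genes in Tg libraries and 45.5 and 43.7% in WT libraries. H3K4me1 covered the start of 0 of 60 genes in all 4 lists, where 6.44 to 14.5% of all genes had it.

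The H3K27ac starts missing in Tg lists were few. Rpl27, a large-subunit gene, and Rps24 had an H3K27ac peak over the start in both WT lists and in neither Tg list, and Rpl24, Rpl37 and Rps21 lacked it in Tg 1 alone. The WT peaks passed the start by 1 and 14 bp upstream at Rpl27 and by 73 and 25 bp at Rps24. A small shift of a peak edge thus decides whether the starts of Rpl27 and Rps24 count as covered. At Rpl24, Rpl37 and Rps21 the WT peaks ran 429 to 1065 bp upstream, and the Tg 2 peaks 583, 26 and 20 bp. All 5 had at least 1 H3K27ac peak in the window in every list. No test was made of these single positions.

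H3K4me3 reached farther into the gene than before it. From the start, the peak ran a median of 1824 and 2084 bp into the gene in Tg libraries and 2350 and 2013 bp in WT libraries, over the 55 genes. Upstream it ran 815 and 797 bp in Tg libraries and 800 and 760 bp in WT libraries. Over all autosomal genes with such a peak the median reach was 1180 to 1278 bp into the gene and 635 to 712 bp upstream. At the mitochondrial ribosomal protein genes, which encode the separate ribosome of mitochondria, it was 1025 to 1114 bp into the gene and 700 to 826 bp upstream. Rplp0, the stalk base gene, showed the one-sided shape in full, with 2220 and 2541 bp into the gene in Tg libraries and 2842 and 2258 bp in WT libraries, but 60 to 147 bp upstream.

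**Figure D2:**
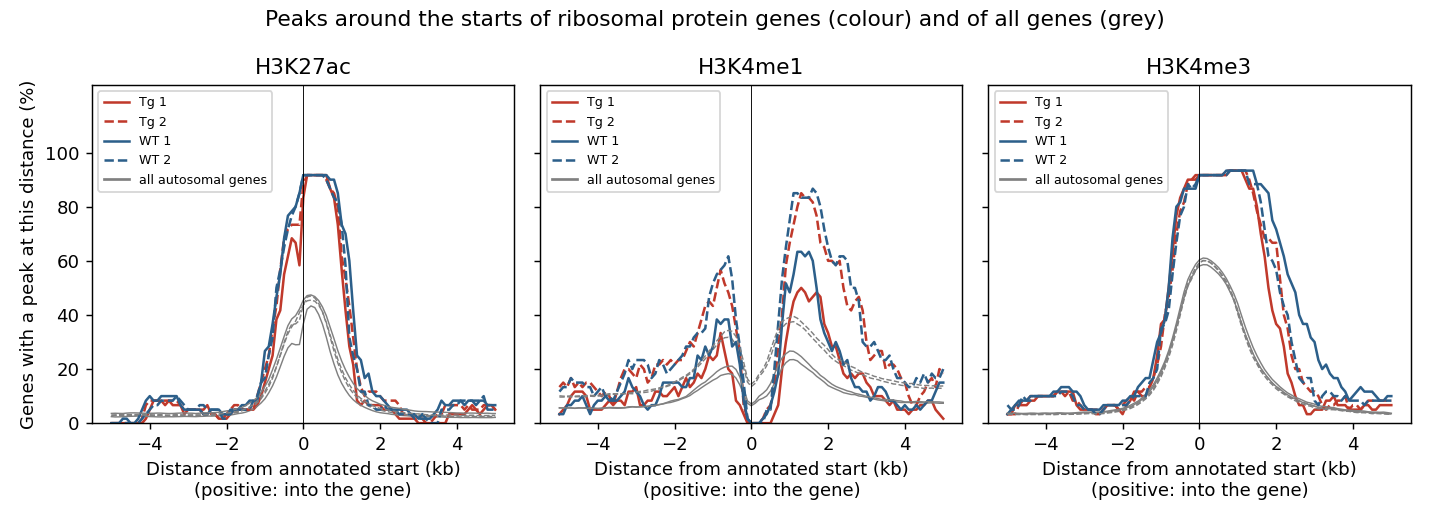
Percentage of the 60 ribosomal protein genes with an annotated start (colour) and of all 16456 genes with one (grey) that had a peak at each distance from the start, in steps of 100 bp from 5 kb before it to 5 kb into the gene. H3K27ac and H3K4me3 cover the start of 83.3 to 91.7% of the ribosomal protein genes, and H3K4me1 falls to 0 there and peaks 1200 to 1600 bp into the gene.

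H3K4me1 lay on both sides of the start, with its inner edges mostly nearer to the start than the ends of the H3K4me3 peak. The nearest H3K4me1 edge downstream of the start was a median of 1095 and 864 bp away in Tg libraries and 882 and 771 bp in WT libraries. Upstream it was 1146 and 541 bp away in Tg libraries and 673 and 465 bp in WT libraries. Flanks on both sides within 2 kb were present at 31 and 50 of the 60 genes in Tg libraries and at 42 and 53 in WT libraries, so this count followed the replicate number more than the genotype.

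H3K4me3 covered much of the length of most of these genes. A median of 58.1 and 66.6% of the gene lay under H3K4me3 in Tg libraries and 75.0 and 64.7% in WT libraries, against 2.88 to 3.30% over all autosomal genes. This share depends on gene length, which was not matched, and genes without a peak enter it as 0. It is therefore no measure of peak width. At least 50% of the gene was covered at 54 and 58 of 80 genes in Tg libraries and 70 and 62 in WT libraries. Over all autosomal genes, 4.17 to 4.53% were covered to that extent. Rps2 (chr17:24718121-24721927) had 79.7 and 81.1% of its length under H3K4me3 in Tg libraries and 92.0 and 82.4% in WT libraries. Rps19 had 46.6 and 57.6% in Tg libraries and 59.6 and 60.7% in WT libraries. Across the 72 genes other than paralogs, the mean width of the widest H3K4me3 peak correlated with that of H3K27ac (Spearman rho = 0.71) and little with gene length (rho = 0.16). These values share libraries and genes and are given without a test.

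The peaks ranked high within their lists. By the authors' −log10 q, the strongest H3K4me3 peak near each gene had a median percentile of 94.7 and 95.4 in Tg lists and 95.9 and 94.1 in WT lists. H3K27ac had 93.6 and 93.8 in Tg lists and 93.0 and 91.0 in WT lists, and H3K4me1 had 78.0 and 83.1 in Tg lists and 84.6 and 86.9 in WT lists. The strongest of several peaks was taken, so these are not set against a single peak's rank.

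Neighbouring genes share these windows. Another protein-coding gene ends within 10 kb of 70 of the 80 genes and within 1 kb of 29. Rpl3l, a paralog expressed in heart and skeletal muscle, lies next to Rps2. Its H3K4me3 coverage of 12127 and 12142 bp in Tg libraries and 12417 and 11340 bp in WT libraries was the largest of all, yet no peak lay over its own start in any list. Rps9, which ranked next, had 10328 and 10036 bp in Tg libraries and 9667 and 9569 bp in WT libraries.

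The marks were then compared with each other over 8 libraries at a time, by limma on the log2 of the length plus 500 bp with genotype as a covariate, adjusted over all genes by Benjamini-Hochberg at a threshold of 0.05. 78 of the 80 genes passed the filter of a peak in at least 2 of the 8 lists. The widest peak was wider for H3K4me3 than for H3K27ac at 73 of the 78 and narrower at 0, where 72.6% of all genes tested were called wider and 3.54% narrower. All 29 small-subunit genes and 37 of the 40 large-subunit genes passed. The 5 that did not were Rpl12, Rpl24 and Rpl41 and the paralogs Rpl32l and Rpl3l. With quantile normalization across the lists 18 of the 78 were wider and 3 narrower, against 19.1% and 22.5% of all genes.

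Rps12, a small-subunit gene at chr10:23785183-23787383, had the largest difference between these marks in the widest peak. Its H3K4me3 peaks were 3704 and 3971 bp in Tg libraries and 4578 and 3759 bp in WT libraries, and its H3K27ac peaks 911 and 1089 bp in Tg libraries and 1871 and 1810 bp in WT libraries. The log2 difference was 1.26 ± 0.13 (SE, n = 8, limma adjusted p = 0.000152). Rps24 followed with 1.07 ± 0.13 (limma adjusted p = 0.000385). Rpl12, of the large subunit, had a difference of 0.00 ± 0.16 (limma adjusted p = 0.997), with H3K4me3 peaks of 3313 to 3915 bp and H3K27ac peaks of 2398 to 4337 bp. Rpl24 had 0.06 ± 0.08 and Rpl41 had 0.18 ± 0.09, and without H3K27ac WT 1 Rpl41 passed, at 0.26.

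**Figure D3:**
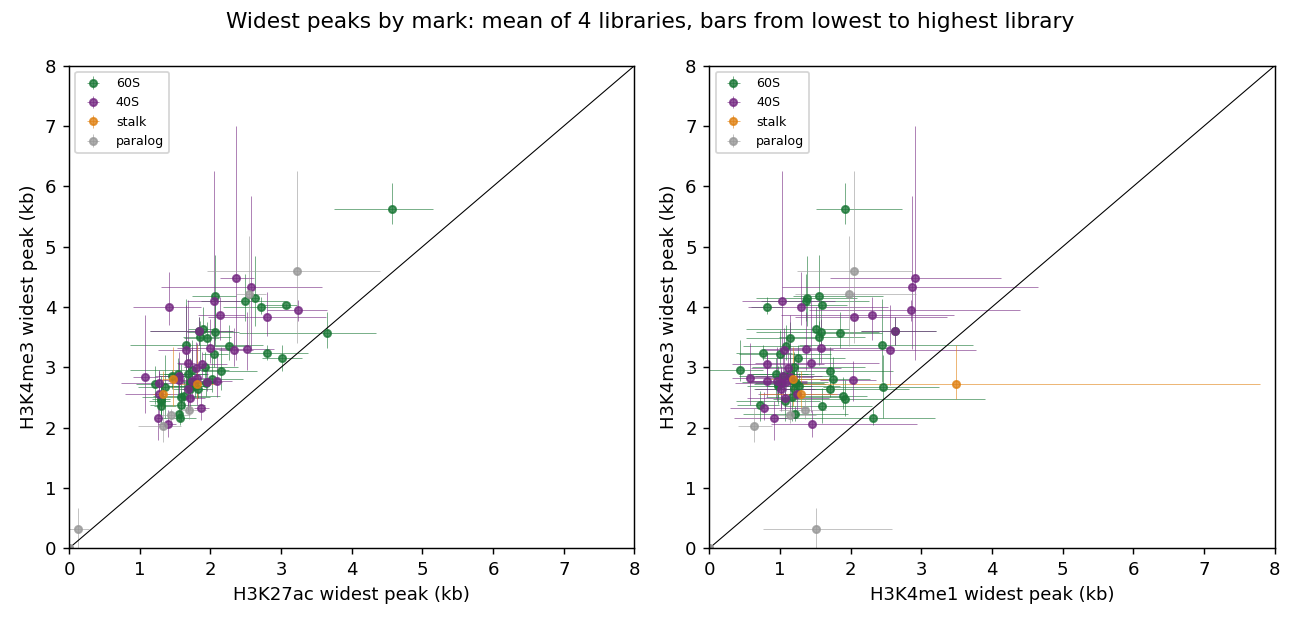
Mean width in kb of the widest H3K4me3 peak (vertical axis) against that of H3K27ac (left) and of H3K4me1 (right) for each of the 80 genes, with bars from the lowest to the highest of the 4 libraries and colours by gene class. Most genes lie above the diagonal of equal width, Rpl12 lies just under it on the left, and Rpl32l and Rplp2 lie below it on the right.

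H3K4me3 peaks were also wider than H3K4me1 peaks at 60 of 78 genes and narrower at 1, against 46.8% and 8.53% of all genes tested (48 and 2 with quantile normalization, against 26.6% and 22.8% of all genes). Rpl15 had the largest difference, with H3K4me3 peaks of 2784 and 2780 bp in Tg libraries and 3457 and 2815 bp in WT libraries against the H3K4me1 widths given above, and a log2 difference of 1.98 ± 0.28 (SE, n = 8, limma adjusted p = 0.000858). Rpl7 and Rps7, genes of the large and the small subunit, followed with 1.79 ± 0.18 and 1.66 ± 0.24. The exception was Rpl32l, a paralog with little H3K4me3, with 0 and 235 bp in Tg libraries and 659 and 358 bp in WT libraries. Its H3K4me1 peaks were 791 and 2581 bp in Tg libraries and 753 and 1920 bp in WT libraries, and the log2 difference was −1.26 ± 0.35 (limma adjusted p = 0.014). Without H3K4me3 Tg 1 it was −1.06 and no longer passed.

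In covered length, as opposed to the widest peak, H3K4me3 and H3K4me1 were close. H3K4me3 covered more at 9 genes and less at 3 of 78, where 12.3% of all genes were called higher and 23.0% lower. This count depends on the scale, since it was 75 and 1 when the lists were scaled to equal total length, where 69.2% of all genes were higher and 10.9% lower. The 3 genes with less were Rpl32l, Rpl6 and Rpl38. Rpl6, a large-subunit gene, had 3639 and 3109 bp of H3K4me3 in Tg libraries and 5098 and 4475 bp in WT libraries. Its H3K4me1 covered 5868 and 9909 bp in Tg libraries and 6613 and 11575 bp in WT libraries, a log2 difference of −0.94 ± 0.26 (SE, n = 8, limma adjusted p = 0.016) that changed sign, to 0.11, on the equal-length scale. Rpl6 did not pass without H3K4me3 Tg 2 (−0.88) or WT 2 (−0.94), and Rpl38 did not pass without any 1 of 6 libraries, at −0.83 to −0.62.

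H3K4me3 covered more than H3K27ac at 72 of 78 genes and less at 0 (69.3% and 5.43% of all genes). H3K27ac covered more than H3K4me1 at 1 gene and less at 18 (2.46% and 48.5% of all genes), and its widest peak was wider at 20 and narrower at 1 (10.8% and 19.7%). The 1 gene with more H3K27ac than H3K4me1 was Rpl41, of the large subunit. It had 2550 and 2984 bp of H3K27ac in Tg libraries and 3381 and 2676 bp in WT libraries, and 1046 and 1772 bp of H3K4me1 in Tg libraries and 1483 and 1306 bp in WT libraries. The log2 difference was 0.85 ± 0.27 (SE, n = 8, limma adjusted p = 0.017), and it did not pass without H3K27ac Tg 2 (0.82), WT 1 (0.78) or WT 2 (0.89). On the equal-length scale the count was 56 higher and 1 lower, against 40.8% and 22.2% of all genes.

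No ribosomal protein gene passed the test between genotypes. Tg was compared with WT within each mark by limma on quantile-normalized log2 lengths (length plus 500 bp, 2 libraries against 2), for 78 genes with a peak in at least 2 of 4 lists. In covered length 0 of 78 were called for H3K27ac, H3K4me1 or H3K4me3, where 0.275%, 0.0% and 0.0% of all genes tested were called. In the widest peak 0 of 78 were called for each mark as well, against 0.0306%, 0.0% and 0.0% of all genes. At an unadjusted p under 0.05 there were 3, 1 and 5 genes in covered length and 4, 0 and 8 in the widest peak, for H3K27ac, H3K4me1 and H3K4me3 in that order. Over all genes the shares at that p were 12.6%, 7.97% and 4.81% in covered length and 13.7%, 5.45% and 4.76% in the widest peak.

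By label, most H3K4me3 values were lower in Tg. The fitted change in covered length was below 0 at 71 of 78 genes, with a median of −0.10, while 49.3% of all genes tested were below 0 with a median of 0.00. In the widest peak it was below 0 at 74 of 78, with a median of −0.13, against 51.8% of all genes. All 29 small-subunit genes, 37 of 40 large-subunit genes and the 3 stalk genes were below 0 in the widest peak. These counts carry no test, and no single gene passed. By the genotype in the peak names, the same 71 and 74 genes would be higher in Tg. By label, H3K4me3 near the 8 granulocyte markers covered 46.6 to 74.7 kb in Tg libraries and 43.5 to 44.2 kb in WT libraries, and near the 8 erythroid markers 25.8 to 31.4 kb in Tg libraries and 19.5 to 24.6 kb in WT libraries.

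Single libraries weighed on this count. WT 1 held the widest H3K4me3 peak at 67 of 78 genes, where it did so at 47.5% of all genes, and the longest reach into the gene at 49 of 55. Without WT 1, 61 of 78 genes were below 0 in covered length (51.4% of all genes) and 64 in the widest peak (55.7%). Without Tg 1 the counts were lower still, at 56 in covered length (48.8% of all genes) and 56 in the widest peak (50.7%). Both Tg libraries lay below both WT libraries in unscaled covered length at 35 of 78 genes, against 18.8% of all genes, and above both at 2, against 11.7%.

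**Figure D4:**
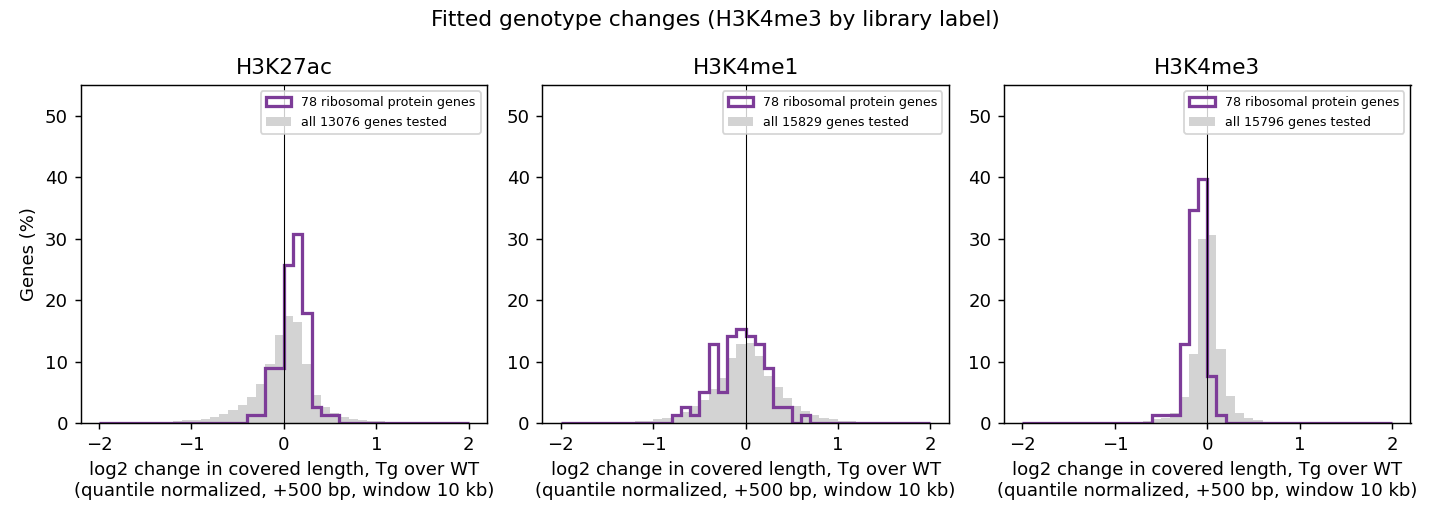
Distribution of the fitted log2 change in covered length, Tg over WT, for 78 ribosomal protein genes (purple outline) and all genes tested (grey), as a percentage of genes per 0.1 bin, with values beyond 2 in either direction counted in the end bins. Most ribosomal protein genes lie below 0 for H3K4me3, by label, and above 0 for H3K27ac after quantile normalization, and no ribosomal protein gene passed the test.

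Rpl6 had the largest fitted H3K4me3 change in covered length apart from the paralog Rpl32l. Its widest peak was 2154 and 2377 bp in Tg libraries and 3207 and 2933 bp in WT libraries, with no overlap between genotypes. The log2 change was −0.38 ± 0.08 (SE, n = 4, limma adjusted p = 0.698), and −0.44 ± 0.09 in covered length (limma adjusted p = 0.916). In the unscaled widest H3K4me3 peak, both Tg libraries lay below both WT libraries at 32 of 78 genes, against 18.3% of all genes. Rps18 and Rps2, small-subunit genes, had changes in the widest peak of −0.50 ± 0.28 and −0.44 ± 0.25, with their Tg and WT libraries overlapping because WT 2 was as narrow as Tg. Rpl35a, a Diamond-Blackfan gene of the large subunit, had the highest value in covered length, at 4670 and 5201 bp in Tg libraries and 4613 and 4480 bp in WT libraries (0.11 ± 0.09, limma adjusted p = 0.919).

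For H3K27ac the direction depended on the scale. Without normalization 13 of 78 genes were above 0 in covered length and 65 below, with a median of −0.11 where all genes had −0.20. After quantile normalization 62 were above 0, with a median of 0.13 where all genes had 0.03 and 55.4% above. The median was above that of all genes on both scales, but without normalization the share above 0 was 16.7%, against 18.0% of all genes. In the unscaled widest peak both Tg libraries lay below both WT libraries at 40 of 78 genes, against 49.0% of all genes.

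The H3K27ac changes in the widest peak were led by 4 genes with narrower peaks in Tg. Rps15a (chr7:118104374-118116147), a small-subunit gene, had widest peaks of 1299 and 1955 bp in Tg libraries and 3578 and 3483 bp in WT libraries (log2 change −0.64 ± 0.14, SE, n = 4, limma adjusted p = 0.173). Rps21 (chr2:180257379-180258444), also of the small subunit, had 737 and 755 bp in Tg libraries and 1904 and 1676 bp in WT libraries (−0.61 ± 0.15, limma adjusted p = 0.190). Rpl37, of the large subunit, had 866 and 1253 bp in Tg libraries and 2738 and 1735 bp in WT libraries (−0.54 ± 0.18, limma adjusted p = 0.314). The unscaled widths of the genotypes did not overlap at these 3 genes, and none passed. Both Tg libraries lay below both WT libraries at 40 of 78 genes, against 49.0% of all genes.

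Rps12 showed how the 2 measures part. Its widest H3K27ac peak was narrower in both Tg libraries, as given above (−0.39 ± 0.12, limma adjusted p = 0.293). Its covered length was 1890 and 2385 bp in Tg libraries and 1871 and 1810 bp in WT libraries (0.38 ± 0.14, limma adjusted p = 0.350). The window held 3 and 4 H3K27ac peaks in Tg libraries and 1 and 1 in WT libraries, and the peak over the start ran 12 and 8 bp upstream in Tg libraries and 1186 and 1159 bp in WT libraries. Rpsa, the laminin receptor gene and a small-subunit protein, had the largest value in covered length, at 2344 and 3073 bp in Tg libraries and 2138 and 2012 bp in WT libraries (0.54 ± 0.14, limma adjusted p = 0.217).

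H3K4me1 values spread around 0. The fitted change in covered length was below 0 at 45 of 78 genes, with a median of −0.05, against 49.5% of all genes. Rpl26, a large-subunit gene whose protein binds the p53 messenger RNA, had 386 and 2056 bp in Tg libraries and 2241 and 2339 bp in WT libraries (−0.78 ± 0.37, SE, n = 4, limma adjusted p = 0.667). Rpl5, a partner of the 5S ribosomal RNA, had 995 and 3989 bp in Tg libraries and 565 and 2380 bp in WT libraries (0.64 ± 0.34, limma adjusted p = 0.696). The 2 Tg libraries lay far apart at both genes, as did the 2 WT libraries at Rpl5, and at Rpl26 Tg 1 was far below the other 3 libraries.

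The genes tied to disease were no exception. Of 22 Diamond-Blackfan anaemia genes in the set, 0 were called in any comparison between genotypes, and 22 were below 0 in the widest H3K4me3 peak, with a median of −0.13 (51.8% of all genes). In covered H3K4me3 length 20 of the 22 were below 0 (49.3% of all genes). Rps19 had H3K4me3 peaks of 3448 and 3694 bp in Tg libraries and 4124 and 4173 bp in WT libraries (−0.22 ± 0.09, SE, n = 4, limma adjusted p = 0.919). Its covered H3K4me3 length went the other way, at 4979 and 4407 bp in Tg libraries and 4124 and 4611 bp in WT libraries (0.10 ± 0.12). Rpl5 and Rpl11, whose proteins bind Mdm2 and restrain it when ribosome assembly fails, had 2303 and 2519 bp for Rpl5 in Tg libraries and 2857 and 2102 bp in WT libraries. Rpl11 had 2079 and 2310 bp in Tg libraries and 2650 and 2416 bp in WT libraries (−0.17 ± 0.08, limma adjusted p = 0.919).

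The stalk genes, whose proteins recruit elongation factors, had fitted H3K4me3 changes of −0.26 to −0.07 in the widest peak, and none passed. Rplp1 had widest peaks of 2364 and 2676 bp in Tg libraries and 3332 and 2843 bp in WT libraries (−0.26 ± 0.09, SE, n = 4, limma adjusted p = 0.919). Rplp0 had 2368 and 2610 bp in Tg libraries and 2938 and 2319 bp in WT libraries, and Rplp2 had 2534 and 2529 bp in Tg libraries and 3377 and 2473 bp in WT libraries. Rplp1 was the 1 stalk gene whose genotypes did not overlap. Both Tg libraries lay below both WT libraries in this measure at 32 of 78 genes, against 18.3% of all genes.

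Among the paralogs, Rpl22l1, Rpl7l1, Rpl36al and Rps27l carried promoter peaks like the other genes. Rps27l, a p53 target, had H3K4me3 peaks of 2163 and 2364 bp in Tg libraries and 2480 and 2148 bp in WT libraries. Rpl22l1, the partner of Rpl22 in blood development, had 1765 and 1896 bp in Tg libraries and 2317 and 2095 bp in WT libraries (−0.22 ± 0.07, SE, n = 4, limma adjusted p = 0.919). Rpl7l1 had 2252 and 2305 bp in Tg libraries and 2210 and 2074 bp in WT libraries, and was 1 of the 4 genes above 0.

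Other translation genes gave a point of comparison. In a list of 24 translation factors and further genes with pyrimidine starts, which includes Fau, 0 were called between genotypes in any mark, and 18 were below 0 in covered H3K4me3 length, with a median of −0.08, against 49.3% of all genes. Of the 78 mitochondrial ribosomal protein genes, 37 were below 0, with a median of 0.00. In the widest H3K4me3 peak, Btf3, a subunit of the nascent-chain complex, and Eef1a1, the main elongation factor, had the lowest values of the translation list, at −0.20 ± 0.11 and −0.17 ± 0.09, and Pabpc1, the poly(A)-binding protein gene, had the highest at 0.32 ± 0.09 (limma adjusted p = 0.880). No difference between these lists was tested.

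Regions under a peak in both lists of 1 genotype but in neither list of the other were counted near these genes, without a test. For H3K27ac, 3 of 80 genes lay within 10 kb of a Tg-only region and 1 near a WT-only region, against 2.35% and 4.72% of all genes. The Tg-only regions lay at Rpl23 (chr11:97771306-97771947), Rpl37 (chr15:5126256-5126649) and Rpl7l1 (chr17:46767751-46768407), and the WT-only region at Rps9 (chr7:3711438-3711895). For H3K4me1, 3 genes lay near Tg-only and 7 near WT-only regions, against 5.97% and 10.7% of all genes.

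For H3K4me3, by label, 1 gene (1.25%) lay near a Tg-only region and 9 (11.25%) near WT-only regions, against 1.93% and 3.21% of all genes. The Tg-only region lay at Rps9 and was 312 bp wide. Of the 9 genes, Rpl23 had 2 regions, and Rpl19, Rpl24, Rps10, Rpl36, Rpl22, Rpl6 and Rpl32 were among the others. The region at Rpl6 (chr5:121207382-121208182), 801 bp wide and inside the gene, was the widest of them, and the others were 243 to 495 bp wide. Within 2 kb of an end the H3K27ac counts were 0 for Tg-only and 0 for WT-only regions, against 0.731% and 1.51% of all genes. The H3K4me3 counts there were 0 and 4, against 0.42% and 1.1%, and 5 genes lay near WT-only H3K4me1 regions, against 3.49%.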

How the data were processed

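Per the labels' protocols, cKit+ bone marrow cells were sorted, chromatin was precipitated with a Diagenode kit, and sequencing was single-end with a read length of 75 bp. The submitters' processing notes name build mm10 and the tools MACS2, Bowtie2, Trim Galore, deepTools, FastQC and SAMtools. Versions, settings and the control library are not given in the sources used here. The authors deposited 1 narrowPeak list per library, called per library. Each deposited peak has a score, a ratio (fold enrichment at the summit) and −log10 p and −log10 q values, which were used only to rank or filter peaks within a list.

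The lengths used per gene and library were computed from the peak positions as the bases under peaks within 10 kb of either gene end, and the full width of the widest peak in that window. Genes came from RefSeq (GRCm38.p6), with 21883 protein-coding genes of unique symbol. Tests were two-sided limma 3.58.1 fits (R 4.3.3) on log2 of the length plus 500 bp, over all genes. They were checked on values simulated from the fits. Between genotypes, 10% of simulated log2 changes of 1 were recovered for H3K4me1 in covered length and 26% in the widest peak. For H3K27ac these shares were 83% and 76%, and for H3K4me3 95% and 92%. Smaller changes were not simulated, so recovery at the sizes fitted for the ribosomal protein genes, −0.78 to 0.73, is unknown. Of the genes given no change, 6 to 22 were called per genotype comparison, beside 200 genes given one. The highest number, 22, was in covered H3K27ac length. Genotype fits were quantile normalized, and mark fits were not. Coordinates are 1-based. The members, gene lists, tests and alternatives (pseudocount, scaling, filter, window, −log10 q of at least 5, replicate block, leaving out each library) were chosen with earlier results of these data known. Named are, per comparison, the genes with the largest and smallest changes or levels, genes lacking a mark, Rps19, Rpl5, Rpl11, the stalk genes, Rpsa and the paralogs, and for the translation list its extremes. Rps15 and genes named for single starts or regions were also picked after their values were seen. Single-gene means cover 2 libraries per genotype, so no interval was given, and peak lists give no depth. Results for some genes are not reported here.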

Additional observations from a re-analysis of the deposited data

How the results depend on the processing

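Between genotypes, 0 of the 78 ribosomal protein genes were called for any mark and measure under every alternative run. Over all genes, covered H3K27ac length gave 36 calls, against 0 with a pseudocount of 100 bp, 6 with equal total covered length, 1 with no filter, 8 with a window of 2 kb and 0 with −log10 q of at least 5. It gave 84 without Tg 1, 114 without Tg 2, 0 without WT 1 and 0 without WT 2. In the widest H3K27ac peak there were 4, against 0 to 12. The genes with an H3K27ac change below 0 in covered length numbered 16, against 9 with equal total covered length and 18 to 26 without single libraries (26 without WT 1). In the widest peak they numbered 18, against 72 without normalization and 18 to 28 without single libraries (28 without Tg 1). The labels do not say that libraries with the same replicate number are paired. Their peak names do share a number or letter across genotypes. These are 2 and 3 for H3K27ac, 4 and 3 for H3K4me1, and F and S for H3K4me3, in replicate order. What the numbers and letters stand for is not given. The deviations of same-numbered libraries correlated at −0.20 for H3K27ac, 0.21 for H3K4me1 and −0.08 for H3K4me3 in covered length. With the replicate block 0 of 78 were called for each mark, and over all genes 6 for covered H3K27ac length and 12 for its widest peak. With the crossed block, chosen after seeing the data, 15 of all genes and 0 of 78 were called in covered H3K27ac length, and 0 of all genes in the widest peak.

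Between marks, quantile normalization called 21 of 78 genes instead of 73 in the widest peak of H3K4me3 against H3K27ac, with log2 differences of −0.48 at Rpl32l, −0.24 at Rpl41 and −0.36 at Rpl24, and 35 instead of 21 in that of H3K27ac against H3K4me1. With −log10 q of at least 5 the last count was 12, and without single libraries 9 to 26 (9 without H3K27ac Tg 2, WT 1 or WT 2, and 11 without H3K27ac Tg 1 or H3K4me1 Tg 1). For covered length of H3K4me3 against H3K4me1 the 12 calls became 76 with equal total covered length and 31 within 2 kb. They became 18 with the replicate block, and 5 to 22 without single libraries (5 or 6 without any H3K4me3 library, 20 without H3K4me1 Tg 2 and 22 without H3K4me1 WT 2). Rpl38 then had 0.28 and Rpl6 0.11 on the equal-length scale, and Rpl6 0.44 within 2 kb. For covered length of H3K27ac against H3K4me1 the 19 calls became 57, 7 within 2 kb, 5 with the −log10 q limit and 7 to 28 without single libraries (28 without H3K4me1 Tg 1, 7 without H3K27ac Tg 1 or WT 2, 10 without H3K4me1 WT 2, 11 without H3K27ac Tg 2, and 12 without H3K27ac WT 1 or H3K4me1 Tg 2). The cause of these changes was not tested.

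Within 2 kb, 0 genes lay near H3K27ac regions of either genotype or Tg-only H3K4me1 or H3K4me3 regions, with 4 near WT-only H3K4me3 regions and 5 near WT-only H3K4me1 regions (0.42 to 3.49% of all genes). With the −log10 q limit the H3K27ac counts were 1 for Tg-only and 3 for WT-only regions, against 1.55% and 4.10% of all genes. The WT-only H3K4me3 count was then 3 of 80 genes (3.75%), against 2.42% of all genes. For the genes named with a fitted value, 434 of their values under the alternatives kept their side of the threshold. Of the other values, 16 lost their call, 2 gained one and 6 changed sign where at least 1 of the fits compared gave a call. A change of sign without any call was counted among the 434, so that number does not measure how stable the direction was. Without 1 library a group holds 1, which is assumed to vary like the others. Peak lists carry no depth, so a peak missing from a list may lie under the caller's threshold.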
